A study of Mus musculus with 6 samples.

Results

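The genes described here are those of the proteasome on a mouse liver array, with the factors that assemble it, activate it or inhibit it. Members were the genes whose array name begins with Psm followed by one of the letters a to g and a number, leaving out the immunoproteasome subunits Psmb8, Psmb9 and Psmb10. A total of 46 of the 27376 genes on the array met this rule. All 46 passed the filter on dim probes and entered the comparison, which covered 18914 genes. In 45 of the 46, the probe was well above background on all 6 arrays. The exception was Psmb11, which was well above background in 1 of 3 control livers and 3 of 3 exposed livers and so passed only through the group in which it was higher. Of the 46 names, 43 are subunits or direct partners of the general proteasome. Psma8 encodes the alpha subunit of the testis form, and Psmb11 encodes the beta subunit of the thymus form. Psmc3ip is a meiotic recombination factor that matches the name rule and is not a subunit of the proteasome.

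The study measured liver RNA of male BALB/c mice that were 6 weeks old at the start. The control mice drank sterile water, the exposed mice drank water with 100 µg/L microcystin-LR (MC-LR, a cyclic peptide toxin of cyanobacteria that hepatocytes take up and that inhibits protein phosphatases), both for 12 months. Each group had 3 livers, which the labels describe as coming from independent mice, each on 1 single-colour Agilent array. By the file headers, controls 1 and 2 were on slide 1, and control 3 was on slide 2 with all 3 exposed livers. Values are the authors' quantile-normalized log2 signals, so a difference of 1 is a doubling of signal.

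The proteasome is the protease that degrades most short-lived and damaged proteins of the cytosol and nucleus, usually after they are tagged with ubiquitin. A barrel of alpha and beta rings holds the protease sites, carried by Psmb5, Psmb6 and Psmb7. A regulatory particle, made of a base with a ring of ATPases and a lid, binds the ubiquitin tag, removes it, unfolds the substrate and feeds it into the barrel. In hepatocytes its substrates include the cholesterol synthesis enzyme HMG-CoA reductase and newly made apolipoprotein B. When proteasomes are inhibited, the transcription factor NRF1 (gene Nfe2l1) raises transcription of the subunit genes together. Interferon gamma exchanges the protease subunits for the immunoproteasome subunits and raises the activator genes Psme1 and Psme2.

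The promoters of 3 members are shown as background, and whether the binding sequences marked in them bear on the values was not tested. Each is the 250 bases before the RefSeq start site on the GRCm38.p6 assembly, 5′ to 3′ on the gene's strand, and the 3 genes were chosen after their values had been seen. Capitals mark TGACNNNGC, the core sequence bound by NRF1 and NRF2, or CCAAT, the box bound by NF-Y, on either strand. Psmb5 is the chymotrypsin-like protease subunit and showed a difference near 0. Psmd9, an assembly chaperone of the base, was among the members with higher values in exposed livers, and Psma1, of the alpha ring, was among those with lower values.
Psmb5, minus strand, chr14:54617996-54618245: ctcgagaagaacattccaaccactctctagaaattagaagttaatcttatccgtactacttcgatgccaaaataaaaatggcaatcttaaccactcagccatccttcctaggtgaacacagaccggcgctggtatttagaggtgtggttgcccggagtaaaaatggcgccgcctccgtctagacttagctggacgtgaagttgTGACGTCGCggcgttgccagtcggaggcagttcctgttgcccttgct
Psmd9, plus strand, chr5:123227940-123228189: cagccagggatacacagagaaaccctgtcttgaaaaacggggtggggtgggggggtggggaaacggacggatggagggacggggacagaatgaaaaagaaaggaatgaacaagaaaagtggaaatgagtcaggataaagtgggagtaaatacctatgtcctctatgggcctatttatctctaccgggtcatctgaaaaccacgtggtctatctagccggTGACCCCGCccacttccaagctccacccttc
Psma1, minus strand, chr7:114276117-114276366: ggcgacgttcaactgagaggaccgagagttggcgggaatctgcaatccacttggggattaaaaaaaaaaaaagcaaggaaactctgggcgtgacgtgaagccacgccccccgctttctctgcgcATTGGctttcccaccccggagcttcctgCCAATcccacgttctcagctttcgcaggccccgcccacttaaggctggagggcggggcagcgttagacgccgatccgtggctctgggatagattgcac

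Of the 46 members, 38 had an entry in the RefSeq promoter table under their symbol. Searching the same 250 bases on both strands, TGACNNNGC occurred in 5 of the 38 (13.2%), namely Psmb5, Psmb6, Psmc6, Psmd12 and Psmd9, against 11.5% of all 27025 genes with a promoter. CCAAT occurred in 14 of the 38 (36.8%), against 37.5% of all genes. GAAA followed by any 2 bases and GAAA, a core of interferon response elements, occurred in 3 of the 38 (7.89%), namely Psmb3, Psmd4 and Psmd9, against 3.46% of all genes. Of the 5 members holding TGACNNNGC, the MC-LR minus control difference in log2 signal was 0.28 for Psmd9, -0.12 for Psmb6, -0.09 for Psmc6, -0.06 for Psmb5 and -0.0042 for Psmd12. These are matches of letters in a window and not measured binding sites.

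None of the 46 members passed an adjusted p of 0.05 (limma, Benjamini-Hochberg over 18914 genes), and the smallest adjusted p among them was 0.270. Over all genes 3 passed, which is 0.0159%. At an unadjusted p under 0.05, and leaving out Psmb11 because it passed the filter only through the exposed group, 2 members were higher with MC-LR (Psma8 and Psmd9), where 7.46% of all genes were. On the lower side there were 2 members (Psmd7 and Psmc2), where 5.4% of all genes were. Neither member count exceeds that background in this fit. On the lower side it did with some of the other settings, which are given at the end. In bulk liver RNA, fewer cells of a type and less RNA per cell cannot be told apart. With 3 livers against 3, the lack of a call does not show that the levels were equal, so the interval of each difference is given with it.

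The intervals were narrow for this family. The 95% interval of the difference lay inside 1.5-fold in either direction for 42 of 46 members (91.3%), against 50.6% of all genes. These intervals are from the fit without the slide, and controls 1 and 2 were on another slide than the exposed livers. The 4 members outside that range were Psma8, Psmb11, Psmc3ip and Psmd10, which encodes gankyrin. The interval of Psmb11 is not read as a result, since it passed the filter only through the exposed group. The median SD between livers of a group was 0.09 log2 units for the members and 0.20 for all genes. Member probes were also brighter, with a median log2 signal of 12.8 against 8.38 over all genes, and the part of brightness in the narrower spread was not tested. In 39 of the 46 members the 6 livers lay within 0.5 log2 units of each other.

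**Figure D1:**
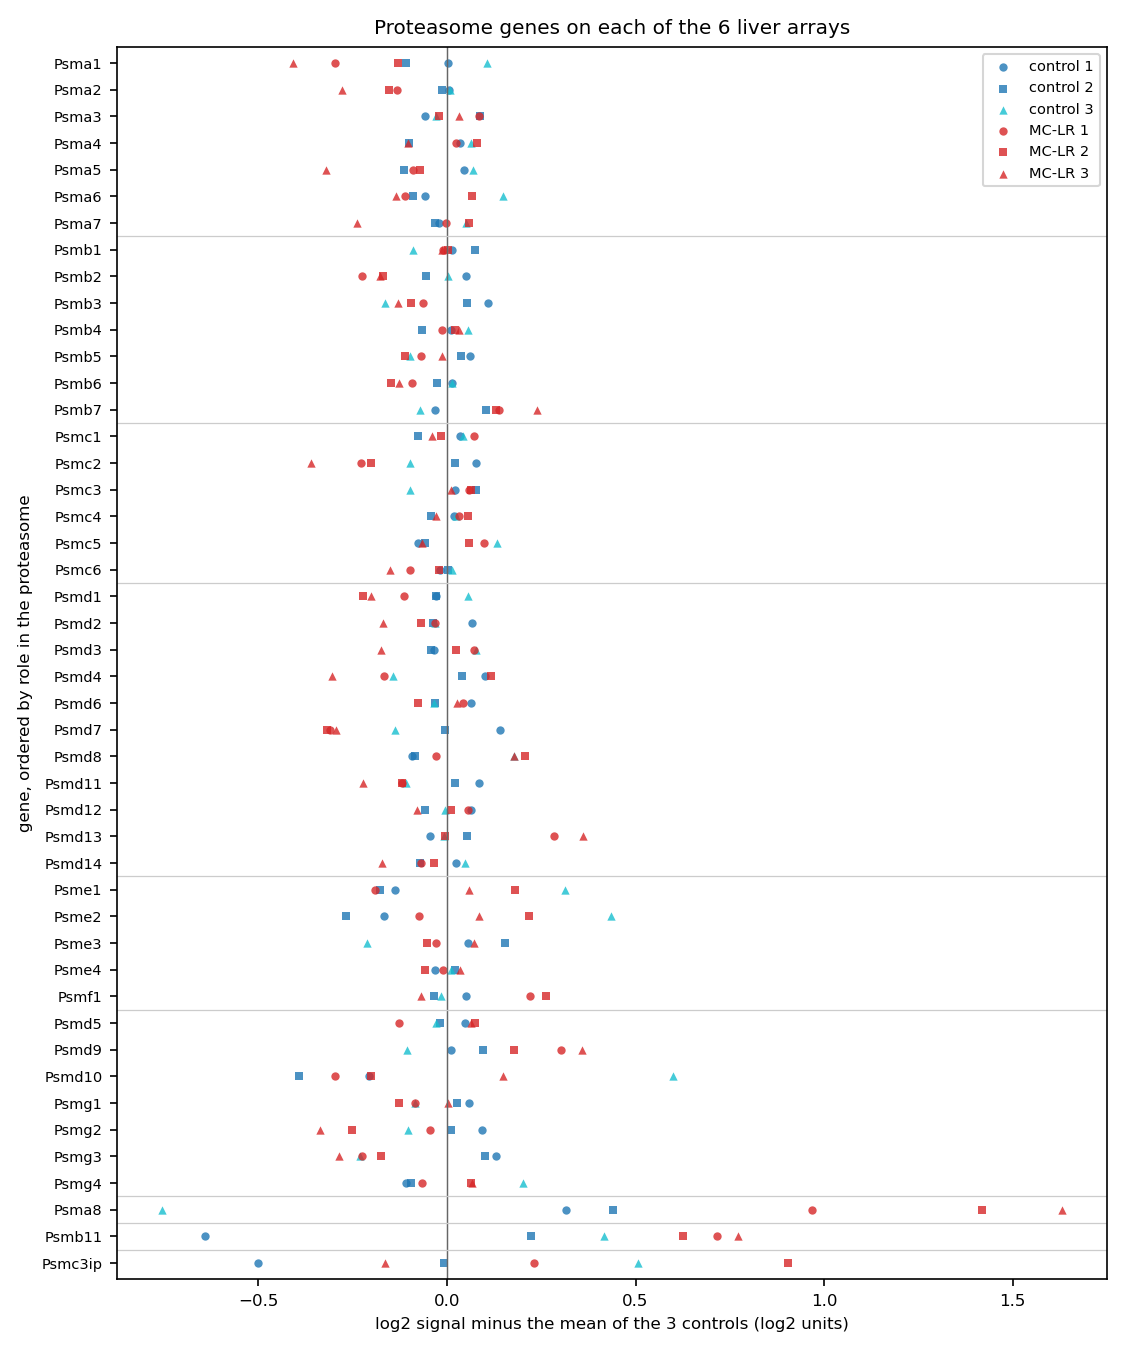
Log2 signal of each of the 46 genes on each of the 6 arrays, minus the mean of the 3 control livers of that gene (horizontal axis, log2 units), with genes on the vertical axis in order of role and symbols for single livers. Most rows span less than 0.5 log2 units, and Psma8, at the bottom of the plot, spans 2.38.

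The median difference over the 46 members was -0.0091, against -0.0089 over all genes, and 27 members were below 0 (58.7%), against 51.5% of all genes. Without Psma8, Psmb11 and Psmc3ip the median was -0.03 with 27 of 43 below 0. The sign of the median over all 46 members followed the scaling of the arrays. It was 0.03 with arrays scaled to their 75th percentile, with 20 members below 0. With arrays scaled to their median it was 0.06, with 16 below 0, where the median over all genes was 0.03. Without control 2 the median over the 46 members was -0.05. No direction is therefore given for the family as a whole. Groups did not overlap, with every exposed liver above or below every control, for 4 members on the higher side (11.2% of all genes; Psma8, Psmb7, Psmd9 and Psmb11, of which Psmb11 entered only through the exposed group) and for 9 on the lower side (9.2% of all genes). The 9 were Psma1, Psma2, Psmb2, Psmb6, Psmc2, Psmc6, Psmd1, Psmd7 and Psmd11. With the deposited values the share of members on the lower side was above that background and the share on the higher side was below it. With 75th percentile scaling 4 members were apart on the lower side (1671 of 18914 genes) and 4 on the higher side (2066 of 18914 genes). With median scaling 3 members were apart on the lower side (6.38% of all genes) and 7 on the higher side (13.8% of all genes). Without control 3, when slide and group coincide, the counts were 7 higher (20.6% of all genes) and 15 lower (22.7% of all genes). Psmb11, which passed the filter only through the exposed group, is not left out of these higher counts.

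**Figure D2:**
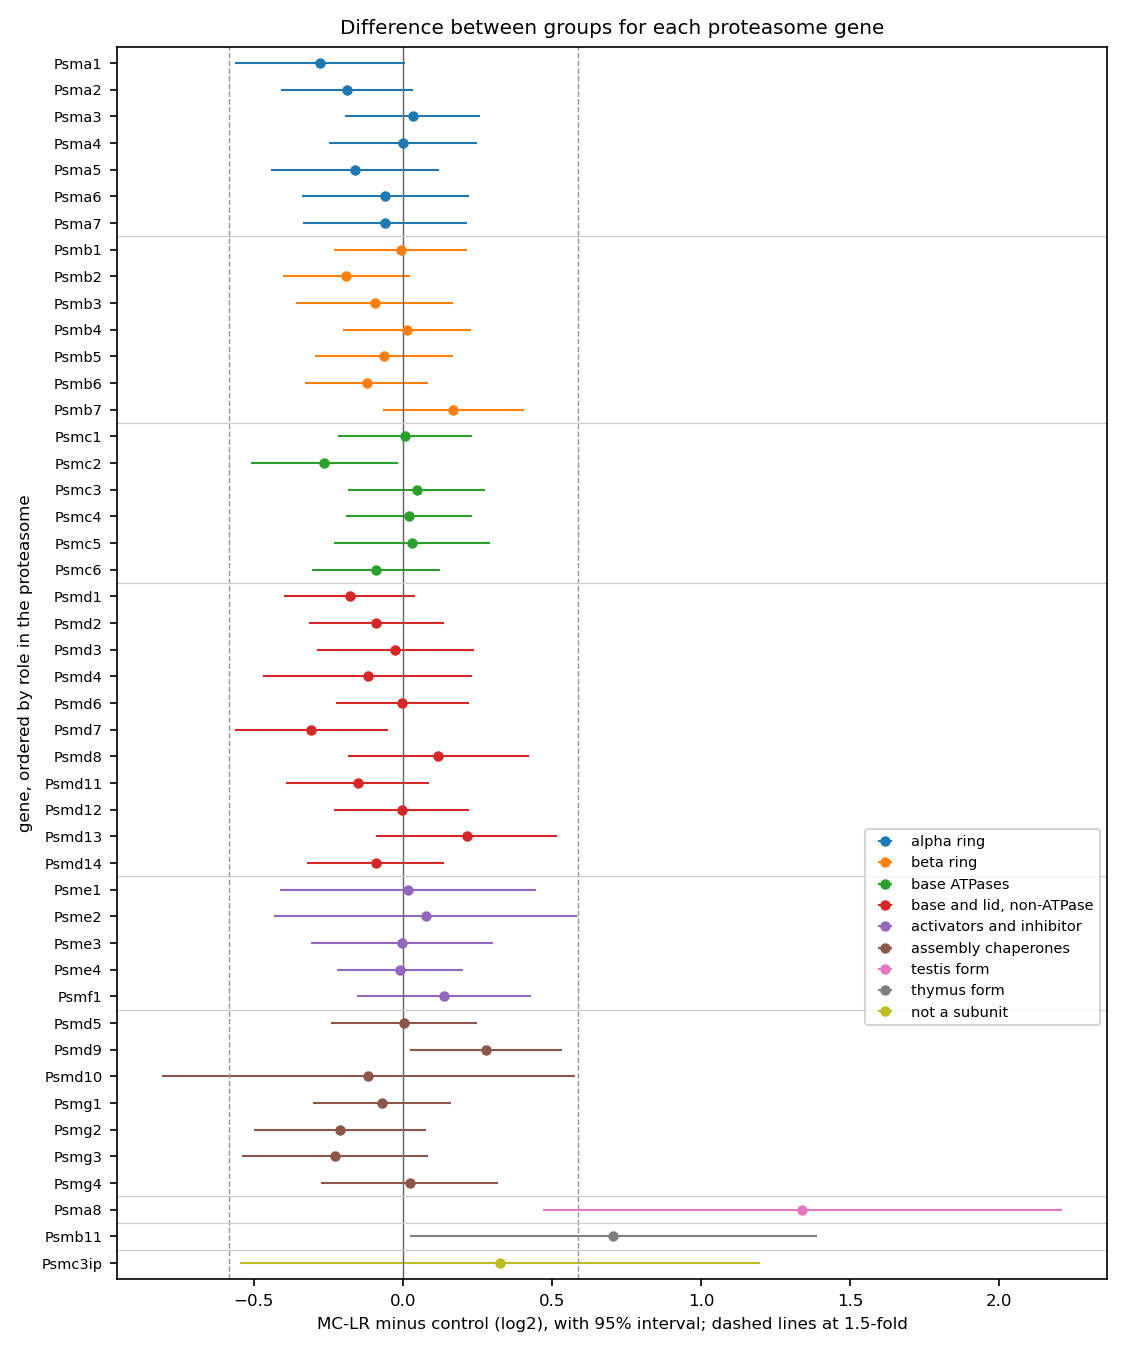
MC-LR minus control difference of each gene in log2 units (points) with its 95% interval from limma (lines), coloured by role. Dashed lines mark 1.5-fold in either direction, which the intervals of 42 of the 46 genes stay within. The line of Psmb11 rests on a probe well above background in 1 of 3 controls.

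The alpha ring forms the outer gates of the barrel and controls entry of the substrate. Its 7 members had a median difference of -0.06, with 5 below 0, and none passed the test. Psma1 was at 14.23, 14.12 and 14.34 in the 3 controls and at 13.93, 14.10 and 13.82 in the 3 exposed livers. Every exposed liver was below every control, with exposed liver 2 almost level with control 2. The difference was -0.28 ± 0.12 (SE, n = 3 and 3), with an interval of -0.56 to 0.01 and an adjusted p of 0.395 (limma, Benjamini-Hochberg). Its probe lies at chr7:121408229-121408288 on mm9, the build named in the file headers. Psma2 was at 15.29, 15.27 and 15.29 in controls and 15.15, 15.13 and 15.00 in exposed livers. The 3 controls were nearly identical and all above the exposed livers, and the difference was -0.19 ± 0.09 with an adjusted p of 0.442 (limma, Benjamini-Hochberg). At the other end of the ring, Psma3 had a difference of 0.03 ± 0.09 and Psma4 of 0.00025 ± 0.10. With median scaling the median of the alpha ring was 0.02, so the sign for this ring also turned with the scaling. Against control 3 alone, the only control on the slide of the exposed livers, it was -0.20 with 6 of 7 below 0. It was -0.022 without exposed liver 3 and -0.12 without exposed liver 2.

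The beta ring holds the protease sites. Its 7 members had a median of -0.06, with 5 below 0, and none passed the test. Psmb5, the chymotrypsin-like subunit and the target of proteasome inhibitor drugs, was at 13.49, 13.46 and 13.33 in controls and at 13.36, 13.31 and 13.41 in exposed livers. The groups overlapped, and the difference of -0.06 ± 0.09 had an interval of -0.30 to 0.17 (adjusted p = 0.808, limma, Benjamini-Hochberg). It was 0.01 with 75th percentile scaling, 0.04 with median scaling and 0.04 against control 3 alone. Psmb6, the caspase-like subunit, was at 14.29, 14.25 and 14.29 in controls and 14.18, 14.13 and 14.15 in exposed livers. These groups did not overlap, and the difference was -0.12 ± 0.08 with an interval of -0.33 to 0.08 (adjusted p = 0.573). With 75th percentile scaling it was -0.040, and with median scaling -0.0052. Psmb7, the trypsin-like subunit, was at 12.58, 12.72 and 12.54 in controls and 12.76, 12.75 and 12.85 in exposed livers. Here the exposed livers were all above the controls, with a difference of 0.17 ± 0.10 and an interval of -0.07 to 0.41 (adjusted p = 0.507). None of the 3 protease subunits passed the test, and their values did not all lie on the same side of 0. Psmb2, a subunit without protease activity that lies beside the catalytic ones, was at 10.43, 10.33 and 10.39 in controls and 10.16, 10.21 and 10.21 in exposed livers. That difference was -0.19 ± 0.09 (adjusted p = 0.424), without overlap. The median of this ring was 0.01 with 75th percentile scaling, 0.04 with median scaling, 0.04 against control 3 alone, -0.033 without control 1 and -0.11 without control 3.

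The base of the regulatory particle carries 6 ATPases that unfold the substrate and open the gate. Their median was 0.01, with 2 below 0. It was -0.070 with 5 below 0 against control 3 alone, -0.027 with the mean of probes, 0.094 with median scaling, -0.017 without control 2 and -0.016 without exposed liver 1, so the ATPases have no settled sign. Psmc2 was at 13.78, 13.72 and 13.60 in controls and 13.47, 13.50 and 13.34 in exposed livers. Every exposed liver was below every control, and the difference was -0.26 ± 0.10, with an interval of -0.51 to -0.02, an unadjusted p of 0.0394 and an adjusted p of 0.364 (limma, Benjamini-Hochberg). A second probe of Psmc2, well above background on all 6 arrays but far dimmer, gave 0.02. Its control mean was 6.32, against 13.70 for the probe used. The probe used lies at chr5:21309053-21309205 (mm9). Psmc6 gave -0.09 ± 0.09 without overlap. The other 4 ATPases, Psmc1, Psmc3, Psmc4 and Psmc5, gave between 0.0052 and 0.05, each with overlapping groups.

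The 11 base and lid subunits that are not ATPases had a median of -0.09, with 9 below 0. With median scaling the median was 0.0049 with 5 below 0, and without exposed liver 3 it was -0.025 with 7 below 0. Psmd7, which pairs with the deubiquitinase in the lid, was at 12.76, 12.61 and 12.48 in controls and 12.30, 12.30 and 12.32 in exposed livers. The exposed livers lay within 0.02 of each other and below all controls. The difference was -0.31 ± 0.11, a 1.24-fold higher level in controls, with an interval of -0.56 to -0.05, an unadjusted p of 0.0266 and an adjusted p of 0.337 (limma, Benjamini-Hochberg). It was -0.17 against control 3 alone and -0.38 without control 3. The other probes of Psmd7 gave -0.10 and 0.09, so the probes of this gene disagreed. Psmd14, the deubiquitinase that removes the ubiquitin chain, was at 12.55, 12.45 and 12.57 in controls and 12.45, 12.49 and 12.35 in exposed livers. The groups overlapped and the difference was -0.09 ± 0.09, with an interval of -0.32 to 0.14 (adjusted p = 0.707). Psmd4, a ubiquitin receptor, was at 12.26, 12.20 and 12.02 in controls and 11.99, 12.28 and 11.86 in exposed livers. It gave -0.12 ± 0.14 with overlapping groups (adjusted p = 0.760, limma, Benjamini-Hochberg). Its other probe, with a control mean of 5.39 against 12.16, gave 0.33. Psmd1, a large scaffold subunit of the base, was at 11.69, 11.69 and 11.77 in controls and 11.60, 11.50 and 11.52 in exposed livers. That is -0.18 ± 0.09 without overlap (adjusted p = 0.454). In the opposite direction, Psmd13 of the lid was at 8.90, 8.99 and 8.93 in controls and 9.22, 8.93 and 9.30 in exposed livers. Exposed livers 1 and 3 were above all controls, exposed liver 2 was among them, and the difference was 0.21 ± 0.12 (adjusted p = 0.515).

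Assembly chaperones help the rings and the base form and are not part of the finished particle. The 7 measured had a median of -0.07, with 4 below 0. It was 0.0016 against control 3 alone, -0.015 with median scaling, -0.011 without control 3, -0.026 without exposed liver 1 and -0.11 without exposed liver 3. Psmd9 was at 9.70, 9.78 and 9.58 in controls and 9.99, 9.86 and 10.04 in exposed livers. Every exposed liver was above every control. The difference was 0.28 ± 0.10, with an interval of 0.02 to 0.53, an unadjusted p of 0.0365 and an adjusted p of 0.361 (limma, Benjamini-Hochberg). It was 0.39 against control 3 alone and 0.21 on its second probe, where the groups overlapped. With the mean of its probes it was 0.25, and the unadjusted p (limma) was not under 0.05. Psmg2 and Psmg3, which help build the alpha ring and the early barrel, gave -0.21 ± 0.12 and -0.23 ± 0.13, each with overlapping groups. Against control 3 alone, Psmg3 was at 0.0016. Psmd10 was at 9.94, 9.75 and 10.75 in controls and 9.85, 9.95 and 10.30 in exposed livers. Control 3 was 0.90 above the mean of the other controls. The difference was -0.12 ± 0.28 over all controls and -0.72 against control 3 alone (adjusted p = 0.238 with the slide as a block, limma, Benjamini-Hochberg), and 0.18 without control 3.

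The activators cap the barrel in place of the regulatory particle, and Psmf1 encodes an inhibitor. Their 5 members had a median of 0.02, with 2 below 0. It was 0.13 with median scaling and 0.13 without control 3, 0.097 without exposed liver 1, -0.0075 without control 1, -0.0043 without exposed liver 3 and -0.020 against control 3 alone. Psme1 was at 14.77, 14.73 and 15.22 in controls and 14.72, 15.09 and 14.97 in exposed livers. Psme2 was at 15.18, 15.08 and 15.79 in controls and 15.28, 15.57 and 15.44 in exposed livers. In both genes control 3 was the highest of the 6 livers. The differences were 0.02 ± 0.18 for Psme1 (adjusted p = 0.978) and 0.08 ± 0.21 for Psme2 (adjusted p = 0.905, limma, Benjamini-Hochberg). They were -0.30 and -0.36 against control 3 alone, and 0.17 and 0.29 without it. Psmf1 was at 9.68, 9.60 and 9.62 in controls and 9.85, 9.89 and 9.56 in exposed livers. It gave 0.14 ± 0.12 (adjusted p = 0.658, limma, Benjamini-Hochberg), with 0.11 and -0.43 on its other probes. Their control means were 8.63 and 5.97, against 9.63 for the probe used. Psme3 and Psme4, the activators found mainly in the nucleus, gave -0.0029 ± 0.12 and -0.01 ± 0.09.

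The immunoproteasome subunits, which are not members, are given beside Psme1 and Psme2 because interferon acts on all of them. Psmb8 was at 13.88, 13.72 and 14.75 in controls and 13.85, 14.39 and 14.40 in exposed livers. Psmb9 was at 13.78, 13.46 and 14.64 in controls and 13.93, 14.34 and 14.03 in exposed livers. Psmb10 was at 14.61, 14.32 and 15.79 in controls and 14.97, 15.39 and 15.27 in exposed livers. Control 3 was the highest liver for all 3 genes and lay above the mean of the other controls by 0.95, 1.02 and 1.33, against 0.47 for Psme1 and 0.65 for Psme2. The differences between groups were 0.10 ± 0.31, 0.14 ± 0.31 and 0.30 ± 0.39 over all controls. They were -0.54, -0.54 and -0.58 against control 3 alone and 0.42, 0.48 and 0.75 without it, so their sign depended on which controls were used. For the subunits they replace, control 3 differed from the mean of the other controls by -0.15 for Psmb5, 0.02 for Psmb6 and -0.11 for Psmb7.

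**Figure D3:**
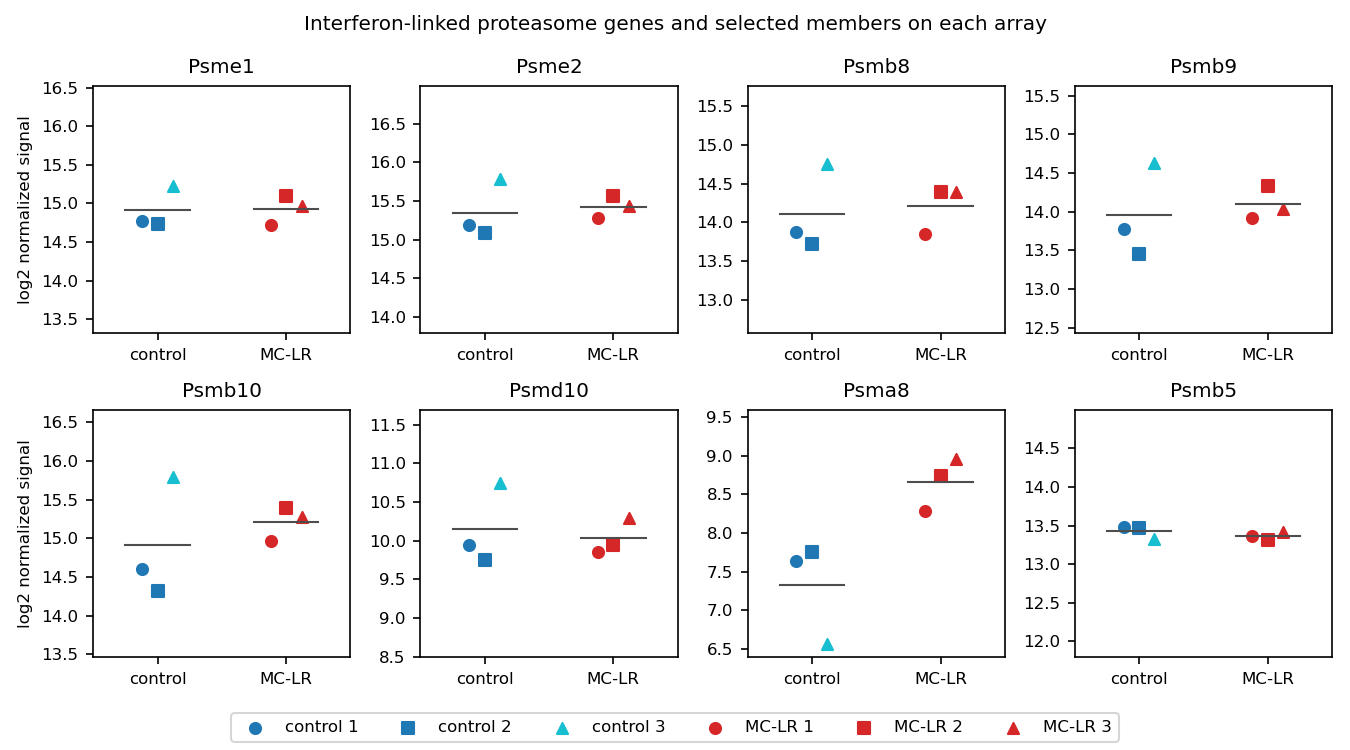
Log2 normalized signal (vertical axis, each panel with its own range of equal length) in the 3 control and 3 MC-LR livers for Psme1, Psme2, the immunoproteasome genes Psmb8, Psmb9 and Psmb10, and Psmd10, Psma8 and Psmb5. Horizontal lines are group means. Control 3 is the highest liver in the first 6 panels and the lowest for Psma8, and the 6 livers of Psmb5 lie within 0.17.

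Over all 46 members control 3 departed from the other controls by more than 0.5 in 5 genes (10.9%), against 25.9% of all genes. Those 5 were Psma8, Psmb11, Psmc3ip, Psmd10 and Psme2. Cell type markers also differed in this liver. The summed linear signal of 6 lymphocyte markers, all of them well above background on all 6 arrays, was 5729 in control 3 and between 2628 and 3354 in the other livers (2682 to 5729 in controls, 2628 to 3354 with MC-LR). Most of that sum was Ptprc, a gene of all leukocytes, at 12.03 in control 3 against 10.93 and 11.01 in the other controls. Cd8a and Nkg7 were also 1.97 and 1.12 above the mean of the other controls there, while Cd3e and Cd79a differed from it by 0.048 and -0.14. The sum of 5 macrophage markers, also all above background, was 57666 in control 3, against 34674 and 36303 in the other controls and 25144 to 41701 with MC-LR. Of these 5, Clec4f was lower in control 3 than in the other controls, by a difference of -0.22 from their mean. The sum of 6 hepatocyte markers, most of it Alb, was between 486060 and 513330 in all livers. Single hepatocyte markers did differ in control 3 from the mean of the other controls, by -1.05 for Apoa1, -0.79 for Ttr and 0.61 for Tat. The sum of 5 endothelial markers was lower in all exposed livers, at 4984 to 5736 against 5935 to 7315 in controls, with control 3 the lowest control. Groups did not overlap for Pecam1 and Cdh5 and overlapped for Kdr, Stab2 and Lyve1. Against control 3 alone Kdr and Stab2 were at 0.13 and 0.02, and Pecam1, Cdh5 and Lyve1 at -0.58, -0.54 and -1.33. The sum of 5 stellate and fibroblast markers, most of it Dcn, was 64515 in control 3, against 51696 and 50535 in the other controls and 46750 to 59949 with MC-LR. Lrat was higher in every exposed liver, by 0.95 over all controls and 0.20 against control 3 alone. The other 4 were below 0 with overlapping groups. For 4 cholangiocyte markers the sum in control 3 was 1206, against 1152 and 756, and 695 to 946 with MC-LR. Sox9 was lower in every exposed liver (-0.73), while Krt7 (0.31), Krt19 (0.16) and Epcam (-0.10) had overlapping groups. For 3 red cell markers the sum in control 3 was 105160, against 155740 and 201100, and 95741 to 117650 with MC-LR. The part of these cells in the values of Psme1, Psme2, Psmb8, Psmb9 and Psmb10, or of the other members, was not tested.

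Psma8 was the member with the largest difference. In the testis its product replaces Psma7 in the proteasome of germ cells. In liver its probe was well above background on all 6 arrays, at 7.64, 7.76 and 6.57 in controls and 8.29, 8.74 and 8.95 in exposed livers. Every exposed liver was above every control, and control 3 was 1.13 below the mean of the other controls. The difference was 1.34 ± 0.36, or 2.53-fold, with an interval of 0.47 to 2.21 log2 units, an unadjusted p of 0.00933 and an adjusted p of 0.270 (limma, Benjamini-Hochberg). It was 2.09 against control 3 alone and 0.96 without control 3. With normexp background correction it was 0.93. Its unadjusted p stayed under 0.05 in 18 of 18 alternative settings, and its adjusted p ran from 0.115 to 0.661. Psma7, whose place it takes in testis, gave -0.06 ± 0.11 with overlapping groups. Psma8 had 1 probe on the array, so no second measurement of this gene was at hand.

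Psmb11 was the dimmest member, at 2.13, 2.99 and 3.19 in controls and 3.49, 3.39 and 3.54 in exposed livers. With 2 of 3 controls not well above background and the filter passed only through the exposed group, no test is given. The means differed by 0.71 in the deposited values, by 0.05 with normexp, by 0.39 without control 1 and by 0.29 against control 3 alone. The other probe, well above background on 1 array, gave -1.03. Psmc3ip was at 5.10, 5.59 and 6.11 in controls and 5.83, 6.50 and 5.43 in exposed livers. These groups overlapped, with a difference of 0.32 ± 0.36 (adjusted p = 0.732). It was -0.18 against control 3 alone, 0.034 without exposed liver 2, 0.074 without control 1, and 0.58 and 0.57 without control 3 and exposed liver 3.

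Of the 46 members, 22 had more than 1 probe, with 29 further probes in all. Of these, 24 probes of 19 genes were well above background on all 6 arrays. Their difference had the sign of the probe used in 11 cases and the opposite sign in 13, and the largest gap between probes of a gene was 0.56, in Psmf1. By the rule these probes were dimmer than the probe used, and the part of signal level in the disagreement was not tested. For Psmd12, where the brightest probe gave -0.0042, the other probes gave -0.21 and -0.23. For comparison, the median absolute difference over the 46 members was 0.09.

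**Figure D4:**
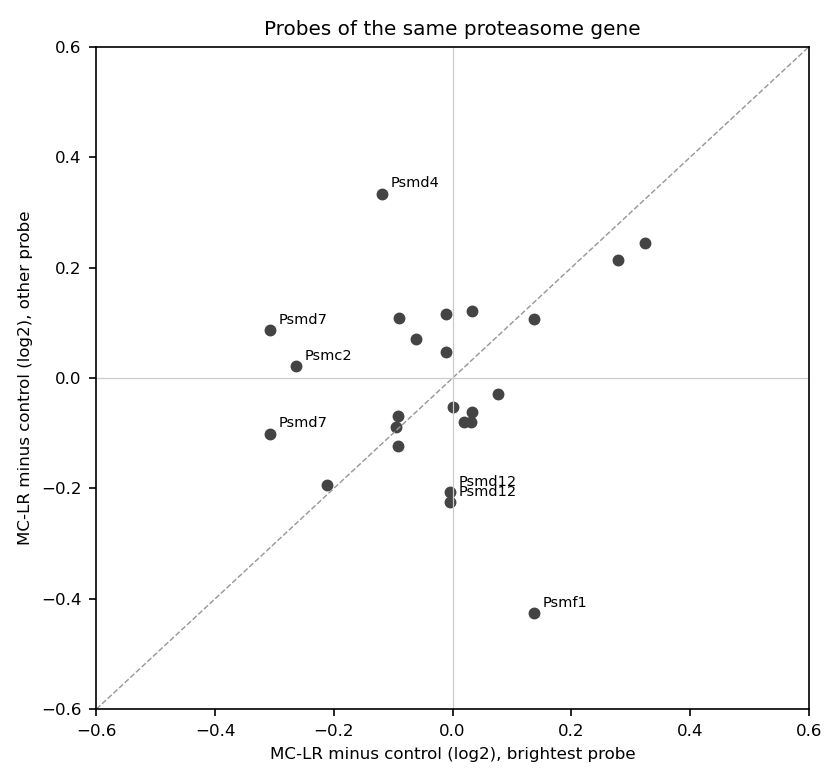
MC-LR minus control difference (log2) of the brightest probe of a gene (horizontal axis) against that of each of its other probes that was well above background on all 6 arrays (vertical axis), 24 probes of 19 genes. The dashed line is equality, and 13 points lie in the quadrants where the signs differ.

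A list of 42 names of ubiquitin and proteasome partners, which hold older and newer names of the same gene, matched 37 genes on the array, and all 37 passed the filter. None passed the adjusted threshold, with 0 higher and 1 lower at an unadjusted p under 0.05, where 7.46% and 5.4% of all genes were. The median difference was -0.0046, with 17 above 0 and 20 below. The 1 lower gene was Uba6, a ubiquitin-activating enzyme, at 7.84, 7.74 and 7.70 in controls and 7.16, 7.39 and 7.64 in exposed livers. That difference was -0.37 ± 0.14 (adjusted p = 0.371, limma, Benjamini-Hochberg). Adrm1, a ubiquitin receptor of the regulatory particle, gave 0.30 ± 0.15 over all controls, 0.01 against control 3 alone and 0.44 without it. AI314180, whose current symbol is Ecpas, a proteasome adaptor, gave 0.31 ± 0.18 over all controls, -0.078 against control 3 alone, 0.50 without it and 0.046 with the mean of its probes. Ubqln1, a shuttle that carries ubiquitinated proteins to the proteasome, gave -0.23 ± 0.14 over all controls, -0.0043 against control 3 alone and -0.35 without it. Ufd1l, a cofactor of the segregase Vcp, gave -0.20 ± 0.11, -0.034 against control 3 alone and -0.28 without it.

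Nfe2l1, which encodes the NRF1 factor, was at 12.66, 12.82 and 12.52 in controls and 12.52, 12.48 and 12.95 in exposed livers. The groups overlapped and the difference was -0.02 ± 0.16, with an interval of -0.42 to 0.38. Pomp, the chaperone that completes the barrel, gave -0.02 ± 0.09. Usp14, a deubiquitinase bound to the regulatory particle, gave 0.08 ± 0.10. The signs of these 3 small differences turned under other settings: Nfe2l1 was 0.05 and Pomp 0.12 with median scaling, and Usp14 was -0.04 against control 3 alone.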

How the data were processed

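RNA from 6 mouse livers, 3 control and 3 MC-LR, was measured on 1 single-colour Agilent array each. Sample titles gave the group and replicate number. Agilent Feature Extraction 10.7, listed in the submitters' processing notes, made the spot values. The main values are the deposited log2 signals. Per the labels' design text, the authors had applied GeneSpring's quantile normalization to them, and the rule that defines the members names these values. They are not centred by gene. Every column has a median of 5.94, and its correlation with the log2 processed signal of its own array was 0.9982 to 0.99995. The scanner files hold intensity values, already corrected for background and spatial trend and with a surrogate in place of dim spots, per the file headers. Quantile normalization of those intensities gave values a median of 0.0005 from the deposited ones. Per array, 64.9% to 73.7% of spots exceeded background clearly, with 0 spots saturated. Precision is limited by how few arrays there were.

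The files' own gene names were used, and the probe of highest mean over the 6 arrays stood for a gene. It had to be well above background in all 3 livers of either group. For 46 of 46 members the probe's accession had the same symbol in the RefSeq table of GRCm38.p6. The comparison used limma 3.58.1 (R 4.3.3) with lmFit and eBayes, two-sided, 4 residual degrees of freedom and 2.04 from the prior. Adjustment was by Benjamini-Hochberg over 18914 genes at a threshold of 0.05. The fit was run on simulated data with independent normal noise and no slide effect, so that run cannot show how the slide affects it. Members, role groups, lists and alternatives were chosen with earlier results of these data known. Named with values are the 6 members in each direction with the smallest unadjusted p, the protease subunits, Psmd14, Psmd4, Psme1, Psme2 and Psmf1, and of the ubiquitin list the 3 with the smallest p in each direction, Nfe2l1, Pomp and Usp14. One gene that this rule names is not reported here. Other members are named as extremes of their role group or after their values were seen. The alternatives were 75th percentile, median and scanner quantile scaling, normexp (offset 50), no filter and a strict one, averaging a gene's probes, a slide block (fixed, then random), slide 2 on its own, a replicate block, trend and robust moderation, and leaving out each liver. Leaving out Psma8, Psmb11 and Psmc3ip was added after seeing the data. Scan and slide coincide. A fit with the slide as a block compares the MC-LR livers with control 3, and the text calls it so.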

Additional observations from a re-analysis of the deposited data

How the results depend on the processing

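The count of 0 members past the adjusted threshold held in 18 of 18 alternatives, and the median over the members changed sign with the scaling. Signal over background limits Psmb11, and 3 livers a group limit every result. Over all genes 3 were called, against 1 with 75th percentile scaling, median scaling, normexp or the strict filter, 5 with no filter, 15 with the slide as a block, 0 on slide 2 alone, and 1 to 50 when leaving out 1 liver, with 50 without control 3 and 1 without MC-LR liver 1. At an unadjusted p under 0.05, median scaling gave 1674 genes higher and 773 lower, against 1411 and 1022. In the member counts at an unadjusted p under 0.05, Psmb11 is left out on the higher side. It passed the filter only through the exposed group. Without Psma8, Psmb11 and Psmc3ip, 1 of 43 members was higher at an unadjusted p under 0.05, where 1411 of 18914 genes were. This count was 0 with the mean of probes (1470 of 18920 genes). Leaving out 1 liver gave 0 to 2, where 803 to 2011 of all genes were. It was 0 without control 1, control 3, MC-LR liver 1 or MC-LR liver 3. On the lower side 2 of the 46 members were under 0.05, where 1022 of 18914 genes were. This count was 0 with 75th percentile scaling, median scaling or the mean of probes. With the slide as a block it was 1: Psmd10 with a fixed block and Psma1 with a random one, not Psmd7 or Psmc2. It was 4 with no filter (1295 of 27376 genes), 6 with trend and robust moderation (1098 of 18914) and 8 with normexp (1198 of 18914). With no filter, trend and robust moderation or normexp the member share was above that of all genes. Leaving out 1 liver gave 0 to 3 members, where 535 to 1932 of all genes were. The count was 0 without control 1, control 2, MC-LR liver 1 or MC-LR liver 3. The main fit did not pair the livers by the replicate numbers of the labels. Deviations from the group means correlated at 0.18, -0.32 and -0.19 for same-numbered livers and at -0.21 to 0.36 for the others. Such deviations sum to 0 within a group of 3, so these values cannot settle whether livers were paired. With the replicate number as a block, 0 genes were called, 1 member was at an unadjusted p under 0.05 on the higher side and 0 on the lower.

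The median over the members, -0.0091, was 0.029 with 75th percentile scaling, 0.064 with median scaling, -0.051 with the slide as a block or on slide 2 alone, and -0.049 to -0.0092 when leaving out 1 liver. Of 548 values of 30 single genes under the alternatives, 54 changed sign, and the cause was not tested. With 75th percentile scaling these were Psmb5 at 0.0082, Nfe2l1 at 0.016 and Pomp at 0.083. With median scaling they were Psmb5 at 0.043, Nfe2l1 at 0.051 and Pomp at 0.12, and with normexp Nfe2l1 at 0.0043. With the slide as a block, as on slide 2 alone, they were Psmb5 at 0.035, Psmd4 at 0.025, Psme1 at -0.30, Psme2 at -0.36, AI314180 at -0.078, Nfe2l1 at 0.13, Usp14 at -0.042, Psmb8 at -0.54, Psmb9 at -0.54 and Psmb10 at -0.58. With the slide as a random block they were Psme1 at -0.12, Psme2 at -0.11, Nfe2l1 at 0.046, Psmb8 at -0.17, Psmb9 at -0.15 and Psmb10 at -0.071. With the mean of probes they were Psmf1 at -0.061 and Psmd4 at 0.11. On another, dimmer probe they were Psmc2 at 0.022, Psmd4 at 0.33, Psmd7 at 0.087, Psme2 at -0.028 and Psmf1 at -0.43. When leaving out 1 liver the differences ran from -0.071 to 0.17 for Psme1, -0.058 to 0.29 for Psme2, -0.17 to 0.068 for Nfe2l1, -0.070 to 0.0049 for Pomp, -0.10 to 0.42 for Psmb8 and -0.11 to 0.48 for Psmb9.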
